A study of Mus musculus with 20 samples.

Results

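The genes described here are 10 macrophage genes of the mouse abdominal aorta, taken as a named list that was drawn up with earlier results of these data known. They are the resident macrophage markers Lyve1, Mrc1 and Cd163, the general macrophage genes Cd68, Adgre1 and Csf1r, the complement C1q genes C1qa, C1qb and C1qc, and Gpnmb. The files gave values for 42890 genes, of which 15010 were tested, and all 10 members were among those tested. The 20 libraries came from abdominal aortas of C57BL/6 mice, 5 in each of 4 groups. These groups were Rab22a knockout (KO) mice given angiotensin II (AngII, a peptide that narrows arteries) at 500 ng/kg/min, wild type (WT) mice given the same AngII, KO mice given saline, and WT mice given saline, each treatment lasting 14 days. The series title names its subject as loss of the endosomal GTPase Rab22a in AngII hypertension. Age and sex were not among the labels, nor was the tissue or cell type in which Rab22a was deleted.

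Macrophages of the arterial adventitia clear debris, iron and lipid and guard the vessel wall. Resident macrophages are known to carry scavenger and matrix receptors such as those encoded by Lyve1, Mrc1 and Cd163. C1q is the recognition part of the classical complement pathway, built from A, B and C chains, and tissue macrophages are its main source. GPNMB is a transmembrane glycoprotein of lysosomes and melanosomes, known as a marker of lipid-laden macrophages and also made by melanocytes.

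Values were FPKM, a count scaled by transcript length and by the library total, summed over the annotated transcripts of each gene. The values corresponded to between 68748273 and 77391354 reads per library, and 12504 to 14342 genes per library reached 1 FPKM. A member's value rested on between 544 reads, for Cd68 in its lowest library, and 38633 reads, for Csf1r in its highest. The main coding transcript of the targeted gene Rab22a followed the labels, at 0 to 0.0056 FPKM in the 10 KO libraries, against 1.87 to 8.62 FPKM in the 10 WT libraries. Another Rab22a transcript, ENSMUST00000142820, was at 7.43 to 11.1 FPKM in KO and 0.162 to 3.61 FPKM in WT. The summed Rab22a FPKM was therefore not lower in KO. It averaged 9.24 in KO and 7.85 in WT under AngII, and 9.41 in KO and 8.16 in WT under saline. The p-values below measure the spread between these libraries. In whole aorta, fewer macrophages and less RNA per macrophage cannot be told apart.

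Only Gpnmb passed the test for a difference between genotypes, and it fell in KO aortas. Gpnmb (ENSMUSG00000029816) is a plus-strand gene of chromosome 6, 49036546 to 49070929 (mm10). In KO aortas under AngII, replicates 1 to 5 had 7.75, 5.13, 10.6, 11.6 and 15.3 FPKM of Gpnmb. In WT aortas under AngII they had 22.8, 25.4, 17.5, 17.7 and 26.7 FPKM. Every KO value lay below every WT value, and Gpnmb was the single member whose groups did not overlap, beside 3.84% of tested genes (576) that were lower in KO without overlap. The means were 10.1 ± 3.87 FPKM in KO and 22.0 ± 4.29 FPKM in WT (SD, n = 5 each). The log2(FPKM + 1) difference was -1.11 ± 0.26 (SE), with an adjusted p of 0.0358 (limma, Benjamini-Hochberg over 15010 genes). It was 1 member of 10 called, beside 1.83% of tested genes, of which 59 were higher and 216, or 1.44% of those tested, lower in KO. With quantile normalization the split over all genes was 250 higher and 124 lower, and Gpnmb stayed lower in KO under every scaling tried.

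Under saline Gpnmb had 9.28, 10.7, 17.1, 12.3 and 16.8 FPKM in KO aortas, against 21.6, 12.3, 28.5, 13.6 and 16.9 FPKM in WT aortas. The groups overlapped, with 2 WT libraries above every KO library. The difference was -0.44 ± 0.26 (SE) and did not pass (limma adjusted p = 0.755). Averaged over both treatments the KO difference was -0.77 ± 0.18 (SE) with a limma adjusted p of 0.0243, again 1 member of 10, where 4.15% of tested genes were called and 3.2% were called lower. The interaction, which asks whether AngII moved Gpnmb differently in KO than in WT, was -0.68 ± 0.36 (SE) and did not pass (limma adjusted p = 0.995). A larger genotype difference under AngII than under saline was therefore not shown.

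The Gpnmb call under AngII lay close to the threshold. The difference stayed between -1.27 and -0.92 when each of the 20 libraries in turn was dropped, and the limma adjusted p went above 0.05 in 7 of these fits. They were the fits without WT AngII replicate 1, 2, 4 or 5 and those without KO AngII replicate 1, 2 or 3, over an adjusted p range of 0.0282 to 0.113 for all 20. Among 12 other settings the difference lay between -1.19 and -0.96 and 6 did not call it, with adjusted p from 0.0264 to 0.0748.

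**Figure D1:**
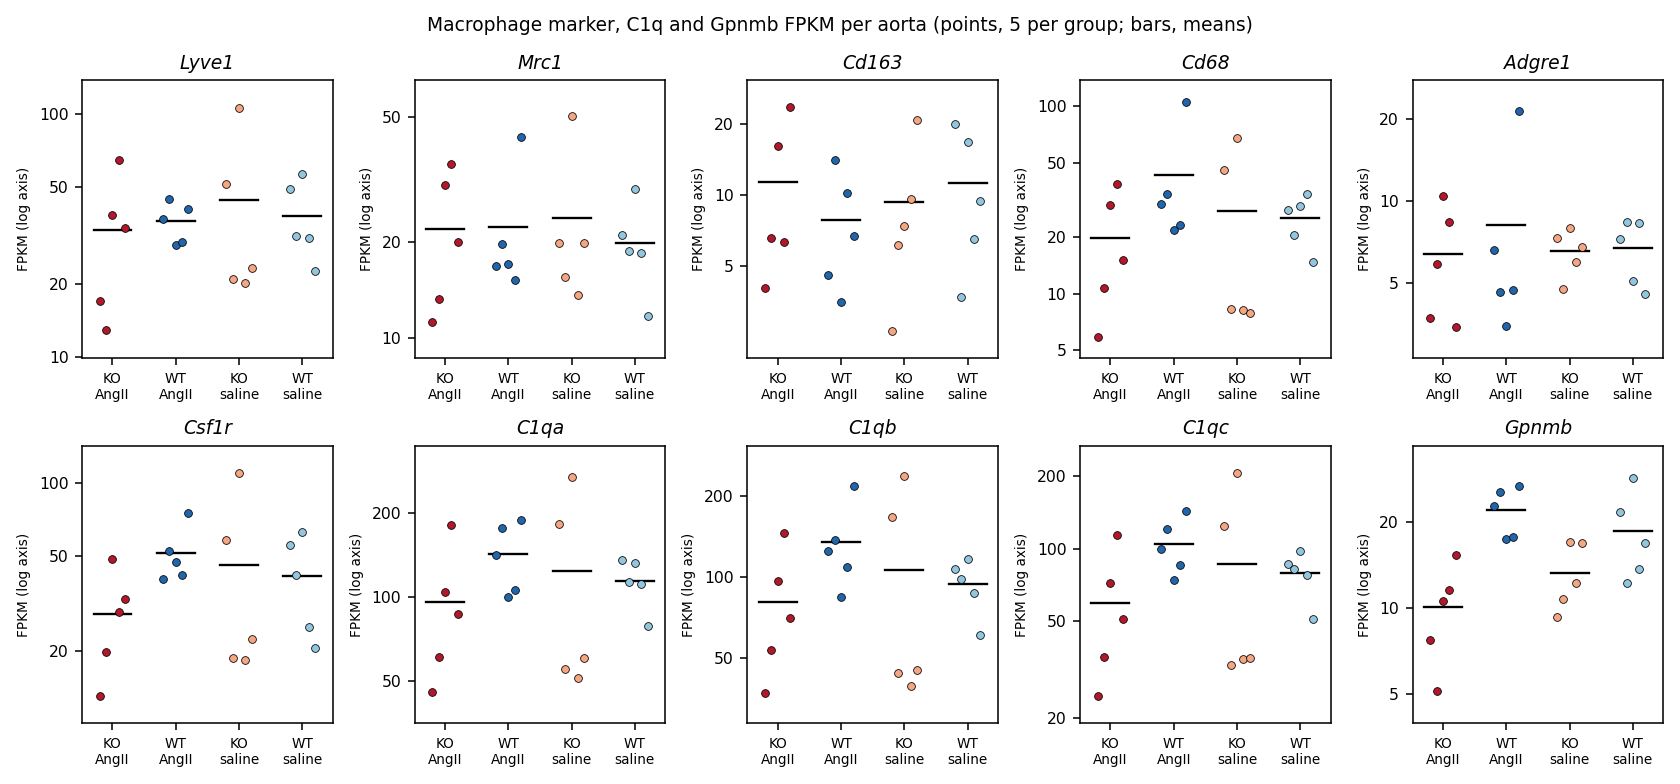
FPKM of the 10 members on log axes in KO and WT aortas under AngII and saline, 1 point per aorta (5 per group, replicates 1 to 5 from left to right) with bars at the group means. The 5 KO AngII points of Gpnmb, from 5.13 to 15.3 FPKM, lie below all 5 WT AngII points, from 17.5 to 26.7 FPKM, while the groups of the other members overlap.

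Gpnmb RNA was mostly 1 transcript. ENSMUST00000031840 held 89.6% of the gene's FPKM over the 20 libraries, and the protein-coding ENSMUST00000204260 held 8.94%. The second transcript was uneven between mice, ranging from 0 to 11.9 FPKM. It took 52.0% of the gene in KO AngII replicate 3, 42.5% in WT AngII replicate 1 and 41.8% in WT saline replicate 3, and stayed at or below 0.108 FPKM in KO saline aortas. The main transcript alone averaged 8.79 ± 4.41 FPKM in KO and 19.6 ± 5.45 FPKM in WT aortas under AngII (SD, n = 5 each). Tested in place of the sum, it gave a difference of -1.14 with a limma adjusted p of 0.0506.

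Since melanocytes also make GPNMB, their markers were read beside it. Of the 5 melanocyte genes Pmel, Dct, Tyrp1, Tyr and Mlana, none reached the level needed for testing. Their summed level was 0.444 to 1.32 FPKM in KO and 1.61 to 3.79 FPKM in WT aortas under AngII, and 0.701 to 1.75 FPKM in KO against 1.47 to 3.75 FPKM in WT aortas under saline. Mlana, which encodes a melanosome protein, averaged 0.180 ± 0.187 FPKM in KO and 1.11 ± 0.957 FPKM in WT aortas under AngII (SD, n = 5 each), and Pmel, a melanosome matrix protein, averaged 0.374 FPKM in KO and 0.695 FPKM in WT, while Tyrp1, Tyr and Mlana were listed at 0 in some libraries. The sum and Mlana ran lower in KO in both treatments, in the direction of Gpnmb, but the genes did not all do so. Tyrp1 averaged 0.039 FPKM in KO and 0.011 FPKM in WT under AngII, and 0.016 FPKM in KO and 0.012 FPKM in WT under saline. Under saline Pmel averaged 0.492 FPKM in KO and 0.462 FPKM in WT. Dct and Tyr were lower in KO under AngII, at 0.287 against 0.365 FPKM and 0.117 against 0.139 FPKM. The part of these low levels in the Gpnmb difference was not tested. Other lists were set against Gpnmb from aorta to aorta, and no correlation was computed for the melanocyte genes, since none was tested. After removing group means, Pearson's r of Gpnmb over the 20 libraries was 0.77 with 5 endothelial genes, 0.72 with lymphatic endothelial genes and 0.60 with 6 fibroblast genes, against 0.18 with lipid-associated macrophage and lysosome genes, as a description of whole tissue libraries that share their cell content. With group means kept, r was 0.40, 0.59 and 0.14 with the same 3 lists in turn, against 0.43 with the lipid-associated list. Macrophage lists differed among themselves. After removing group means, r of Gpnmb was 0.60 with other resident macrophage genes and 0.29 with monocyte genes. With group means kept these were 0.58 and 0.39. Among the members, r without group means was 0.71 with Cd163, 0.60 with Mrc1 and 0.59 with Lyve1, against 0.10 to 0.45 with the rest. The endothelial genes summed to 209 to 298 FPKM in KO and 211 to 244 FPKM in WT aortas under AngII, with none listed at 0 in any library. Of them 3 were higher and 2 lower in KO under AngII (median 0.0067), and 0 passed the test.

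The C1q genes were the most abundant members and moved almost as 1 gene. All 3 lie within chromosome 4 on the minus strand, C1qb (ENSMUSG00000036905) from 136880129 to 136886187, C1qc (ENSMUSG00000036896) from 136889804 to 136893065 and C1qa (ENSMUSG00000036887) from 136895917 to 136898803 (mm10). Bases before the RefSeq start sites of C1qb, C1qc and Gpnmb are shown because C1qb and C1qc lie next to each other and varied together from library to library while Gpnmb followed them less closely. Sequences are RefSeq's, build GRCm38.p6, 5′ to 3′ on the strand of the gene, at chr4:136886201-136886450 on the minus strand for C1qb, chr4:136893066-136893164 on the minus strand for C1qc and chr6:49036268-49036517 on the plus strand for Gpnmb. Capitals mark 2 motifs searched on both strands, AGGAAGT, a form of the site bound by the myeloid factor PU.1 (ACTTCCT on the other strand), and TCATGTG, the M-box bound by MITF and TFE factors (CACATGA on the other strand).
C1qb: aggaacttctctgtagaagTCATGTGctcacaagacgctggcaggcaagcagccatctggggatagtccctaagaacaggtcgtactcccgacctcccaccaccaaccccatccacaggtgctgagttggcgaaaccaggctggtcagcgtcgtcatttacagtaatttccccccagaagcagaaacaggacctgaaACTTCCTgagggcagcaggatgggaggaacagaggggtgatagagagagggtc
C1qc: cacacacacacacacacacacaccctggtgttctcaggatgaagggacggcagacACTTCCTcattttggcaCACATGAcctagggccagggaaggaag
Gpnmb: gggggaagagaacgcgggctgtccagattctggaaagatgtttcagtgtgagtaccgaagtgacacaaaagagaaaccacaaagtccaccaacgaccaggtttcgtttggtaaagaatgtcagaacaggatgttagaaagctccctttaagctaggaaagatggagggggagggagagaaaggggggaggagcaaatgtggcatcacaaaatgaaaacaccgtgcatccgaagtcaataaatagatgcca

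For C1qc the RefSeq start lies inside the GENCODE model used for its FPKM, so that 151 of the 250 bases before it are transcribed in that model, and only the 99 bases before the model are printed. RefSeq windows of 250 bases matched 6 of the 10 members, namely Mrc1, Cd163, Cd68, C1qb, C1qc and Gpnmb. AGGAAGT began 53 bases before the RefSeq start site in C1qb, 195 bases in C1qc and 211 bases in Mrc1, each time on the opposite strand, and 7.69% of 32851 windows of this length held it. TCATGTG began 231 bases before the start in C1qb and 178 bases in C1qc, where 3.25% of windows held it. The third motif searched, TGAGTCA of AP-1, occurred in Cd68 at 149 and 24 bases, and 4.46% of windows held it. The motifs do not overlap each other. Gpnmb and Cd163 held none of these letters in this window. A match is a description of sequence and not evidence of binding.

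C1qa, which encodes the A chain, had 46.0, 61.3, 104, 182 and 87.4 FPKM in KO aortas under AngII, against 142, 177, 101, 107 and 189 FPKM in WT aortas under AngII. Under saline it had 183, 55.6, 269, 51.4 and 60.6 FPKM in KO aortas, against 136, 113, 132, 111 and 79.0 FPKM in WT aortas. KO saline aortas lay either above all WT saline aortas, in replicates 1 and 3, or below all of them, in replicates 2, 4 and 5. The group means were 96.1 ± 52.9 in KO and 143 ± 40.1 in WT under AngII, and 124 ± 97.9 in KO and 114 ± 22.7 in WT under saline (FPKM, SD, n = 5 each).

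C1qb, which encodes the B chain, had 37.2, 53.7, 97.2, 145 and 70.3 FPKM in KO aortas under AngII, against 125, 138, 84.7, 109 and 219 FPKM in WT aortas under AngII. C1qc, which encodes the C chain, had 24.7, 35.6, 72.0, 114 and 51.3 FPKM in KO aortas under AngII, against 99.7, 120.2, 74.1, 85.5 and 143 FPKM in WT aortas under AngII. KO replicate 4 lay among the WT values for both genes and KO replicate 3 for C1qb, and the other KO values lay below all WT values. Under saline the KO ranges, 39.4 to 237 FPKM for C1qb and 33.2 to 205 FPKM for C1qc, again enclosed the WT ranges of 61.1 to 117 FPKM and 51.0 to 98.2 FPKM.

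No C1q gene passed the test in any of the 7 comparisons. The KO difference under AngII was -0.68 ± 0.43 for C1qa, -0.81 ± 0.46 for C1qb and -0.96 ± 0.47 for C1qc (log2, SE), with limma adjusted p of 0.429, 0.381 and 0.300. Under saline the 3 differences lay between -0.28 and -0.21. With AngII they were 0.30 to 0.48 in WT aortas and -0.30 to -0.13 in KO aortas, all short of the threshold. The chains kept a steady proportion, C1qa being 1.25 to 1.86 times C1qc in FPKM over the 20 libraries, with means of 1.67 in KO and 1.36 in WT aortas under AngII. Across the 20 libraries, which differ in cell content, Pearson's r between pairs of C1q genes was 0.98 to 0.99 (Spearman's rho 0.98 to 0.99), and between Gpnmb and a C1q gene 0.49 to 0.54 (rho 0.47 to 0.53), as a description.

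Of the general macrophage genes, Cd68 and Csf1r ran with C1q and Adgre1 did so less closely. Cd68 (ENSMUSG00000018774, chromosome 11, 69664213 to 69666153, minus strand) encodes a lysosomal glycoprotein of phagocytes. It had 5.93, 10.7, 29.6, 38.3 and 15.1 FPKM in KO aortas under AngII, against 29.99, 34.2, 21.8, 23.3 and 106 FPKM in WT aortas under AngII. WT AngII replicate 5 stood far above the other 4 of its group, and KO replicates 1, 2 and 5 lay below all WT values. The difference was -1.07 ± 0.61 (SE, limma adjusted p = 0.378). Under saline Cd68 had 45.7, 8.34, 67.2, 8.24 and 7.87 FPKM in KO aortas, against 27.9, 20.6, 29.4, 33.8 and 14.9 FPKM in WT aortas. The same 2 KO aortas as for C1qa lay above all WT aortas and the other 3 below all of them.

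Csf1r (ENSMUSG00000024621, chromosome 18, 61100598 to 61132149, plus strand) encodes the receptor for the macrophage growth factors CSF1 and IL-34. It had 13.03, 19.8, 48.5, 29.2 and 32.9 FPKM in KO aortas under AngII, against 40.2, 52.5, 46.9, 41.6 and 75.04 FPKM in WT aortas under AngII. In KO, 4 of the 5 values lay below every WT value, and replicate 3 lay inside the WT range. The difference was -0.91 ± 0.46 (SE, limma adjusted p = 0.317), and under saline it was -0.11 ± 0.46 (SE, limma adjusted p = 0.974).

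Adgre1 (ENSMUSG00000004730, chromosome 17, 57358691 to 57483527, plus strand) encodes the adhesion receptor F4/80. Over all 20 libraries it had the lowest mean of the members, 6.95 FPKM, although Cd163 had the lower mean in WT aortas under AngII (7.83 FPKM against 8.19 FPKM for Adgre1) and the lowest single value. Adgre1 had 3.44 to 10.4 FPKM in KO and 3.49 to 21.4 FPKM in WT aortas under AngII, and 4.76 to 7.97 FPKM in KO and 4.55 to 8.36 FPKM in WT aortas under saline. Its differences ran from -0.14 to 0.0082 in the 4 comparisons of 2 groups, and their sign changed between settings. The highest value was again WT AngII replicate 5. Its main coding transcript ENSMUST00000004850, which held 81.5% of the gene, was listed at 0 in 2 libraries where the other transcript carried the whole value.

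**Figure D2:**
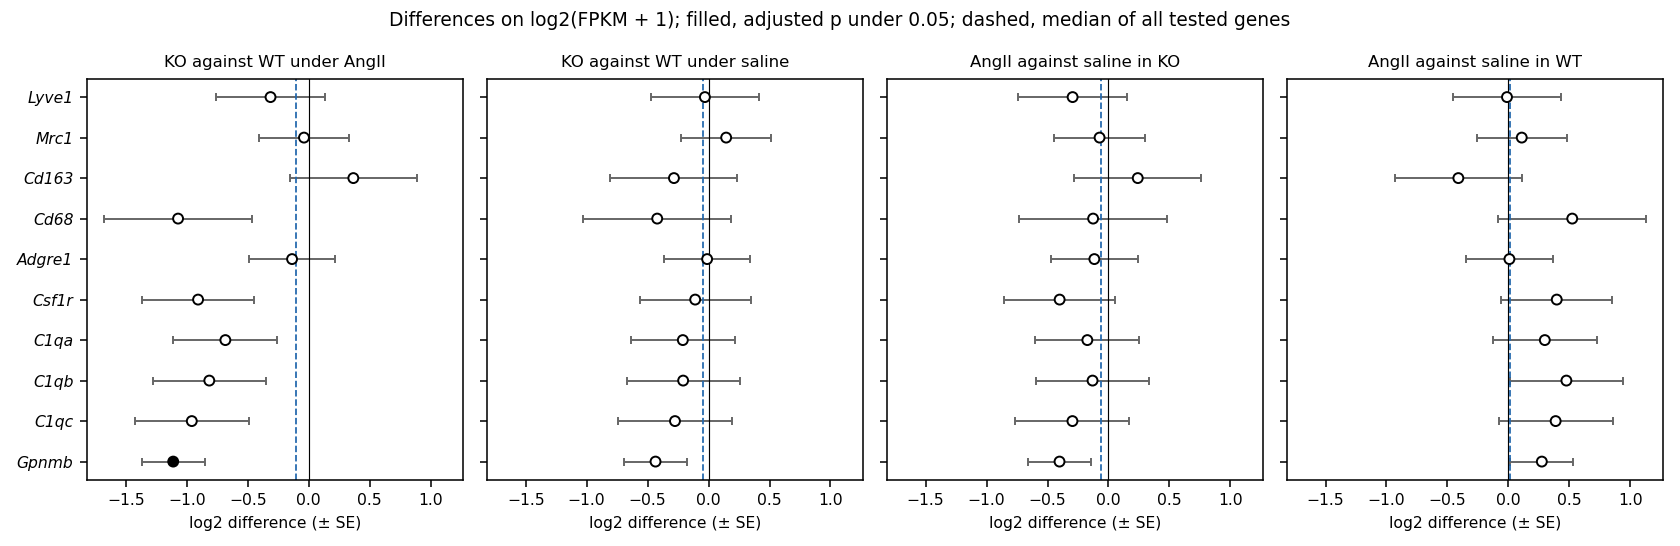
Differences on log2(FPKM + 1) with standard errors for the 10 members in 4 comparisons, 15010 genes fitted together. Gpnmb under AngII is the single filled point (adjusted p = 0.0358), and the dashed lines mark the median of all tested genes, which was -0.10 for KO against WT under AngII.

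None of the resident markers passed the test either, and their KO differences under AngII ran from -0.31 to 0.37. Lyve1 (ENSMUSG00000030787, chromosome 7, 110850607 to 110863239, minus strand) encodes a hyaluronan receptor of adventitial macrophages and of lymphatic endothelium. It had 17.001, 12.9, 38.6, 64.8 and 33.9 FPKM in KO aortas under AngII, against 37.1, 44.8, 29.0, 29.8 and 40.6 FPKM in WT aortas under AngII. KO replicates 1 and 2 lay below, and replicate 4 above, all WT values. The means of 33.4 ± 20.6 in KO and 36.3 ± 6.86 FPKM in WT (SD, n = 5 each) differed by -0.31 ± 0.44 on the log2 scale (SE, limma adjusted p = 0.755). Under saline Lyve1 ranged from 20.1 to 106 FPKM in KO and from 22.5 to 56.6 FPKM in WT aortas.

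Mrc1 (ENSMUSG00000026712, chromosome 2, 14229392 to 14332057, plus strand) encodes the mannose receptor CD206. It had 11.2, 13.3, 30.4, 35.4 and 20.1 FPKM in KO aortas under AngII, against 16.8, 19.7, 17.05, 15.3 and 43.3 FPKM in WT aortas under AngII. KO replicates 1 and 2 were again the lowest of their group, and WT replicate 5 the highest of all 10. The difference was -0.04 ± 0.37 (SE, limma adjusted p = 0.972), and it was 0.07 with TMM-like scaling and 0.12 with quantile normalization.

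Cd163 (ENSMUSG00000008845, chromosome 6, 124304656 to 124330527, plus strand) encodes the scavenger receptor for haemoglobin bound to haptoglobin. It had 4.04, 6.61, 16.1, 6.35 and 23.4 FPKM in KO aortas under AngII, against 4.58, 14.1, 3.52, 10.2 and 6.73 FPKM in WT aortas under AngII. The groups overlapped throughout, and Cd163 was the single member with a positive KO difference under AngII, 0.37 ± 0.52 (SE, limma adjusted p = 0.755). Over the 20 libraries Pearson's r of Cd163 with Lyve1 was 0.10 and with Mrc1 0.17, against 0.83 between Lyve1 and Mrc1, given as a description. Part of the Cd163 value came from an intron-retaining transcript. ENSMUST00000203210 held 41.5% of the summed FPKM and the coding ENSMUST00000112541 held 56.8%. The coding transcript took from 5.77% to 87.5% of the gene in KO saline aortas and from 7.37% to 85.3% in WT AngII aortas, so the sum is an uncertain measure of coding RNA.

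**Figure D3:**
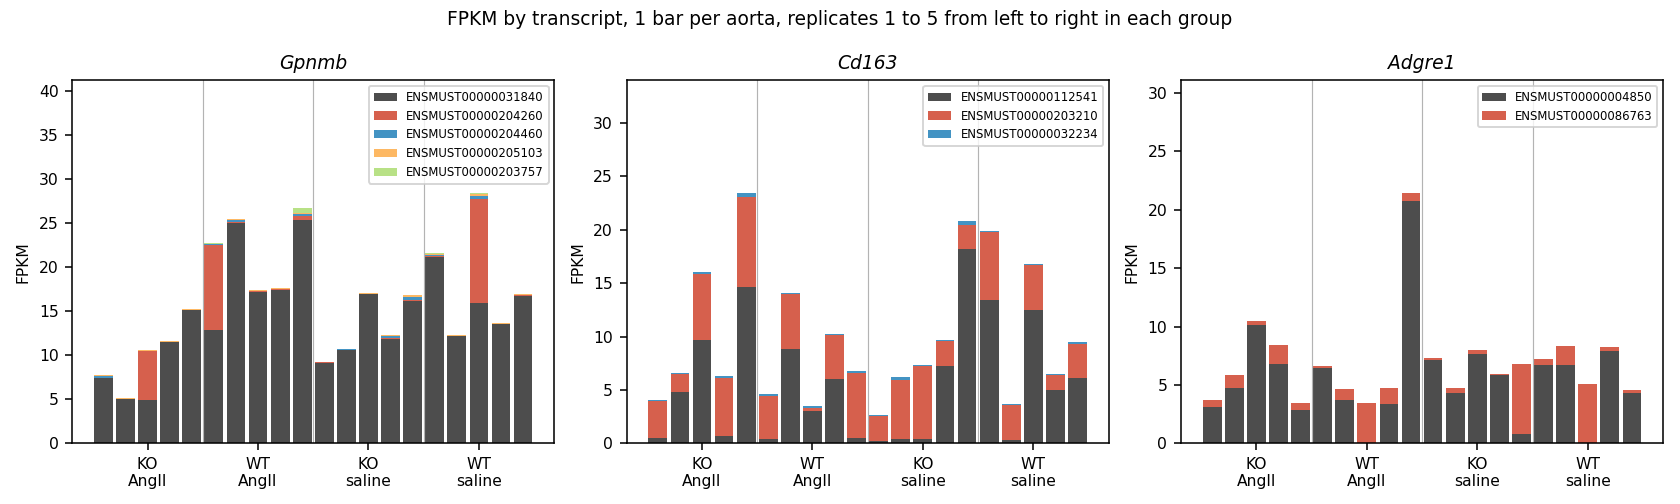
FPKM of Gpnmb, Cd163 and Adgre1 split by annotated transcript, 1 bar per aorta, with KO AngII, WT AngII, KO saline and WT saline from left to right. The red Gpnmb transcript ENSMUST00000204260 is large in 1 aorta each of KO AngII, WT AngII and WT saline, with up to 11.9 FPKM, while the retained-intron transcript ENSMUST00000203210 makes up more than 50% of Cd163 in 2 KO AngII, 2 WT AngII, 3 KO saline and 1 WT saline aortas.

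The rule set the resident markers against the other members, which was done here by their mean log2(FPKM + 1). The resident mean was 4.22 ± 0.71 in KO and 4.21 ± 0.38 in WT aortas under AngII, and 4.26 ± 0.57 in KO and 4.32 ± 0.54 in WT aortas under saline (SD, n = 5 each). The mean of the other 7 genes was 4.77 ± 0.67 in KO and 5.59 ± 0.50 in WT aortas under AngII, and 5.01 ± 0.91 in KO and 5.25 ± 0.33 in WT aortas under saline. The resident means of the 4 groups spread over 0.10 and those of the other genes over 0.81. The resident mean joined genes of unlike direction, with KO differences under AngII of -0.31 for Lyve1, -0.04 for Mrc1 and 0.37 for Cd163. Pearson's r with the C1q genes over the 20 libraries was 0.86 to 0.91 for Lyve1 and 0.75 to 0.77 for Mrc1. It was -0.12 to -0.08 for Cd163, 0.88 to 0.97 for Csf1r and Cd68, and 0.48 to 0.54 for Adgre1 and Gpnmb.

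Resident minus other was -0.55, -0.80, -0.51, -0.82 and -0.088 in KO aortas under AngII, and -1.55, -1.06, -1.36, -1.09 and -1.80 in WT aortas under AngII. The ranges did not overlap. Under saline it was -1.68, -0.51, -1.11, -0.42 and -0.019 in KO aortas, and -0.67, -1.39, -0.59, -1.15 and -0.85 in WT aortas, and here the ranges overlapped. The means were -0.56 ± 0.30 in KO and -1.37 ± 0.31 in WT under AngII, and -0.75 ± 0.65 in KO and -0.93 ± 0.34 in WT under saline (SD, n = 5 each). This contrast is over genes chosen for the purpose and carries no test. With the most abundant transcript of each gene in place of the sum, the ranges under AngII overlapped, at -1.41 to -0.26 in KO and -2.58 to -1.10 in WT aortas, with means of -0.86 in KO and -1.66 in WT.

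**Figure D4:**
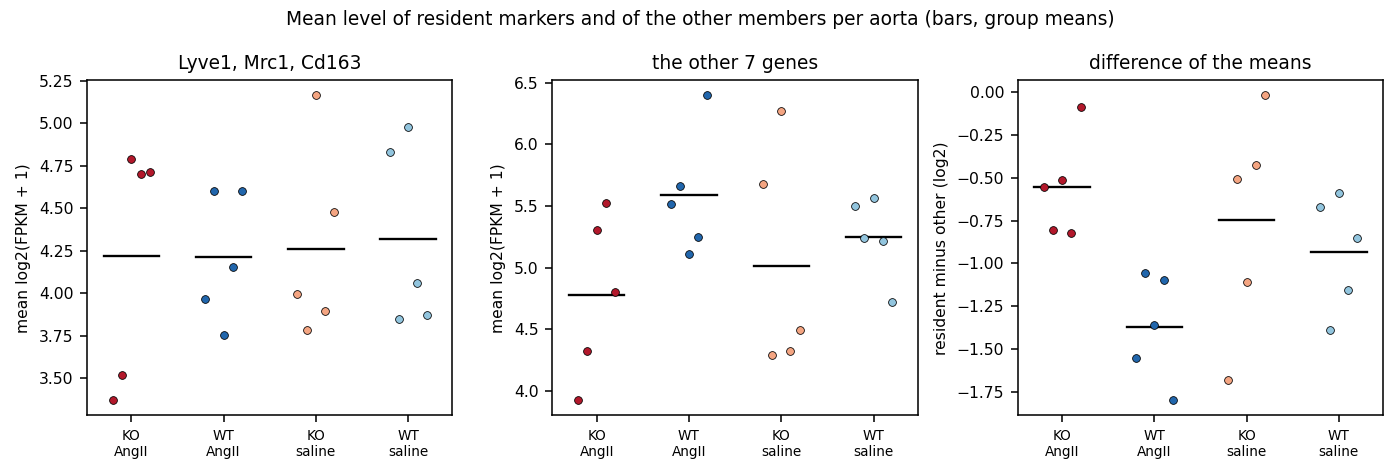
Mean log2(FPKM + 1) of the 3 resident markers, of the other 7 members, and their difference, 1 point per aorta with bars at the group means. Under AngII the difference lies between -0.82 and -0.088 in KO aortas and between -1.80 and -1.06 in WT aortas.

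As a set, 9 of the 10 members were lower in KO than in WT under AngII, with a median log2 difference of -0.75, beside 62.0% of all tested genes lower and a median of -0.10. Under saline 9 of 10 were lower on the log2 scale, with a median of -0.21, beside 57.1% and -0.04 over all genes, where 0.0133% of tested genes were called. These counts depended on scaling. With quantile normalization Lyve1 and Adgre1 were higher in KO under saline, and Mrc1 was higher in KO under AngII. Of all tested genes 51.6% were then higher in KO under saline and 53.7% under AngII. In mean FPKM under saline the direction differed, with C1qa at 124 FPKM in KO and 114 FPKM in WT. C1qb, C1qc, Cd68, Csf1r, Lyve1 and Mrc1 also had the higher mean FPKM in KO, while Gpnmb, Cd163 and Adgre1 had the lower. AngII against saline called no gene in either genotype, so 0 of 10 members and 0% of tested genes, with 458 genes in WT and 595 in KO aortas at an unadjusted p under 0.05, and limma-voom on recovered reads called 0 in both. In KO aortas 9 of 10 members were lower with AngII (median -0.15, all genes -0.06), and in WT aortas 8 of 10 were higher (median 0.29, all genes 0.02). These comparisons share groups, so their signs are not independent of each other.

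The C1q genes, Cd68, Csf1r, Lyve1 and Mrc1 varied between aortas together with lymphocyte genes. Pearson's r of these 7 genes with the T and NK cell level over the 20 libraries was 0.67 to 0.96, against 0.52 for Gpnmb, 0.40 for Adgre1 and -0.083 for Cd163, as a description. The level of 8 B and plasma cell genes (mean log2(FPKM + 1)) ranged from 0.79 to 4.77 in KO and from 3.97 to 5.44 in WT aortas under AngII, and from 0.70 to 5.53 in KO and 3.22 to 5.51 in WT aortas under saline. That of 9 T and NK cell genes ranged from 0.56 to 4.38 in KO and 3.52 to 4.29 in WT aortas under AngII, and from 0.80 to 5.31 in KO and 2.14 to 4.30 in WT aortas under saline. As summed FPKM the B and plasma cell genes came to 8.72 to 338 in KO and 266 to 605 in WT aortas under AngII, and the T and NK cell genes to 4.92 to 219.5 in KO and 116 to 218 in WT. All 8 and all 9 genes were lower in KO under AngII, by a median of -1.84 and -1.83, and 0 of them passed the test, while over both treatments 1 of the 8 B and plasma cell genes, Jchain, which encodes the joining chain of antibodies, was called lower in KO, by -3.06 ± 0.62 (log2, SE, limma adjusted p = 0.0119). Over both treatments 3.2% of all tested genes were called lower. Of their markers only Cd8a was listed at 0 in any library.

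KO AngII replicates 1 and 2 and KO saline replicates 2, 4 and 5 were the lowest aortas both in these lymphocyte genes and in C1q, and KO saline replicate 3 was the highest in C1q and in T and NK cell genes. In a fit with both lymphocyte levels as covariates, chosen after the values had been seen, the KO difference under AngII was 0.03 ± 0.19 for C1qa, -0.04 ± 0.22 for C1qb and -0.16 ± 0.18 for C1qc. It was -0.00021 ± 0.30 for Cd68 and -0.25 ± 0.30 for Csf1r (SE). For Gpnmb it was -1.01 ± 0.28 (SE), close to the value without covariates, with a limma adjusted p of 0.0581. Lyve1 was then higher in KO, by 0.38 ± 0.19, and Mrc1 by 0.45 ± 0.28, neither passing the test. Both lymphocyte levels were themselves lower in KO under AngII, and r of the T and NK cell level was 0.92 to 0.96 with the C1q genes and 0.52 with Gpnmb. Such a fit takes out the part of any gene's difference that follows its covariates, and this can turn the sign, as for Lyve1 and Mrc1. These values therefore do not tell where the differences came from, which was not tested. The 7 genes of lymphatic endothelium, a tissue that also makes LYVE1, summed to 51.8 to 457 FPKM in KO and 219 to 492 FPKM in WT aortas under AngII. Within that sum the chemokine gene Ccl21a had 15.5 to 388 FPKM in KO and 171 to 436 FPKM in WT aortas, a log2 difference of -1.74 ± 0.95 (SE, limma adjusted p = 0.360). Of the 6 tested genes of this list 4 were higher and 2 lower in KO, with a median of 0.10, and Prox1 was listed at 0 in at least 1 KO library. Pearson's r with the level of the 6 tested genes over the 20 libraries was 0.91 for Lyve1, 0.86 for Mrc1 and 0.28 for Cd163. With other resident macrophage genes it was 0.84, 0.86 and 0.12 in turn, as a description.

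**Figure D5:**
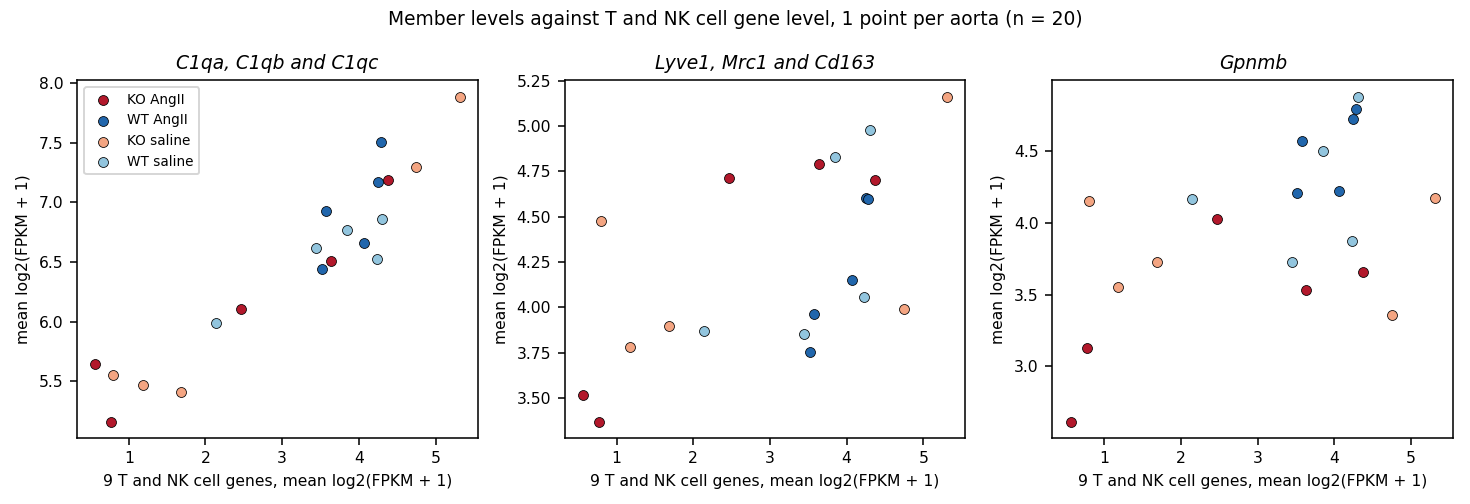
Mean log2(FPKM + 1) of the C1q genes, of the resident markers and of Gpnmb against that of 9 T and NK cell genes, 1 point per aorta (n = 20) coloured by group. The C1q level climbs with the T and NK cell level over the whole range, while Gpnmb in WT AngII aortas, between 4.21 and 4.79, lies above all 5 KO AngII aortas. The T and NK cell level of WT AngII aortas runs from 3.52 to 4.29, and of the KO AngII aortas only replicate 3, at 3.63, lies in that range.

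KO AngII replicate 1 was the lowest of the 20 libraries in 6 members, and KO saline replicate 3 was the highest in 6. Without WT AngII replicate 5 and KO saline replicates 1 and 3, a choice made on high values of the members themselves, the KO difference under saline became -0.9999 for C1qa, -1.09 for C1qb, -1.15 for C1qc and -1.47 for Cd68, none passing (limma adjusted p from 0.0777 to 0.0993). Gpnmb under AngII was then -1.04 with an adjusted p of 0.0509. Averaged over both treatments the 3 C1q genes, Cd68 and Csf1r were called lower in KO in that fit beside Gpnmb, with log2 differences from -1.08 to -0.73, which carries no weight as a test because the libraries were picked on these genes. That fit called 2665 of 15010 tested genes over both treatments, against 623 in the main fit.

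Other macrophage lists gave no call under AngII between genotypes. Of 12 other resident macrophage genes 10 were lower in KO and 2 higher, with a median of -0.23. Among them Gas6, the ligand of the phagocytic TAM receptors, averaged 112 ± 20.1 in KO and 118 ± 14.8 FPKM in WT, and Stab1, a scavenger receptor, 29.9 ± 8.64 in KO and 32.2 ± 15.99 FPKM in WT (SD, n = 5 each). Of 20 tested lipid-associated macrophage and lysosome genes 16 were lower and 4 higher, with a median of -0.40 and a smallest limma adjusted p of 0.0983. Apoe, the lipid carrier, averaged 468 ± 150.0 in KO and 742 ± 238 FPKM in WT, and the lysosomal protease gene Ctsd 538 ± 70.5 in KO and 715 ± 106 FPKM in WT. Ctsb averaged 300 ± 20.8 in KO and 395 ± 89.8 FPKM in WT. Plin2 went the other way, with 306 ± 168 in KO and 293 ± 87.7 FPKM in WT.

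Of 12 classical complement genes beyond C1q, 10 were lower in KO under AngII and 2 higher, by a median of -0.43, and 0 passed. C3, the central component of the cascade, averaged 289 ± 119 in KO and 432 ± 127 FPKM in WT aortas, and Serping1, the inhibitor of C1, 160 ± 26.8 in KO and 196 ± 45.8 FPKM in WT (SD, n = 5 each). Of 11 genes of the CSF1 axis and macrophage transcription factors, 9 were lower and 2 higher, by a median of -0.60, with a smallest limma adjusted p of 0.0905. Over both treatments 1 of them, Cebpb, which encodes a transcription factor of myeloid cells, was called lower in KO, by -0.90 ± 0.24 (log2, SE, limma adjusted p = 0.0417). Of all tested genes 4.15% were called there, and 3.2% were called lower. In the same comparison 1 of 6 white adipocyte genes and 1 of 6 fibroblast genes were called higher in KO. Spi1, which encodes PU.1, averaged 10.6 ± 6.57 in KO and 19.96 ± 7.22 FPKM in WT, whereas Csf1, the growth factor, averaged 14.9 ± 3.81 in KO and 16.99 ± 2.48 FPKM in WT. Of 11 monocyte genes 8 were lower and 3 higher, by a median of -0.57, and 0 passed.

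The genes most like the members were sought by Pearson's r of log2(FPKM + 1) after removing group means, over the 20 libraries, as a description. Nearest to the C1q mean were Renbp and Tifa (0.98 each), Tyrobp, Ctss and Lyz2 (0.97 each). Nearest to Gpnmb were Slc43a3 (0.93), Nr2f2 (0.89), A4galt (0.88), Mmrn1 and Slc27a3 (0.87 each). Nearest to the resident mean were Rasl11a and Pbx3 (0.91 each), Tm9sf2, Clec10a and C1s1 (0.90 each). The 3 sets had no gene in common.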

How the data were processed

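Abdominal aorta RNA of 20 mice was sequenced after depletion of ribosomal RNA, per the labels' protocols. For each library the authors deposited values of 126719 transcript models, read here as FPKM from the numbers themselves, since no label names the unit. Multiplied by transcript length, 99.4% to 99.5% of low values lay within 0.1 of a whole read. The build is mm10 per the submitters' processing notes, and the aligner is not given in the sources used here. FPKM depends on transcript models and on all other RNA in a library.

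Of 110082 Ensembl transcripts 109913 were matched to GENCODE M21 and summed per gene. Unannotated models, 10.6% to 12.9% of the FPKM, were left out. Genes reaching 1 FPKM in 5 or more libraries were tested on log2(FPKM + 1) with limma 3.58.1 in R 4.3.3 (trend and robust, 1 mean per group, 7 comparisons), two-sided, at a Benjamini-Hochberg adjusted p under 0.05. The fit was tested on simulated data. Tables came from pandas 2.3.3 and figures from matplotlib 3.10.9 (Python 3.11.15). The labels number the replicates in each group and give no batch. Same-numbered libraries did not deviate together, and each was taken as a separate mouse.

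The members and the 18 other gene lists were chosen with earlier results of these data known. The text names all members, at most 4 genes of each other list by mean FPKM, and the 5 genes most like each of 3 member profiles, passing over predicted loci. Melanocyte genes, some genes listed at 0 and some list genes called over both treatments were named after their values were seen. Alternatives covered scaling, pseudocount (0.1), filters (none, or 5 FPKM), variance model, groups in the fit, a replicate block, transcript choice, limma-voom on recovered reads and each library left out. A fit with lymphocyte covariates and one without 3 libraries were added after the data were seen.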

Additional observations from a re-analysis of the deposited data

Results flagged for a closer look

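Of 40 groups of 5 values (10 members in 4 groups), 4 held 1 aorta set apart from the other 4 by a gap wider than Dixon's 95% limit, where chance gives about 1 in 20. WT AngII replicate 5 stood apart in Mrc1 at 43.3 FPKM, in Cd68 at 105.5 FPKM and in Adgre1 at 21.4 FPKM. KO saline replicate 3 stood apart in Mrc1 at 50.2 FPKM. Neither library stood apart in this way in Gpnmb, Lyve1, Cd163, Csf1r or the C1q genes.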

How the results depend on the processing

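Of the member differences, none but Gpnmb's was called in a planned setting. Each member value rested on at least 544 reads, and no limit from depth was tested. The causes of the changes below were not tested. The replicate numbers did not pair the mice, with correlations of same-numbered deviations from -0.52 to 0.41 in 30 pairs, 10 of them over 0.1. With the replicate block, 70 genes were called for KO against WT under AngII in place of 275, and 1 under saline in place of 2, and Gpnmb under AngII kept -1.11 with a limma adjusted p of 0.0506.

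For KO against WT under AngII, limma called 1 gene from the compared groups alone, 130 with the top transcript, 165 with voom, 511 without WT AngII replicate 5 and KO saline replicates 1 and 3 and 463 with lymphocyte covariates. TMM-like scaling gave 208 higher and 162 lower. Over both treatments the count was 623, with 1172 without a filter, 381 with the top transcript, 2665 without the 3 aortas and 1168 with covariates, and the split of 143 higher and 480 lower became 429 and 245 with quantile normalization and 400 and 238 with TMM-like scaling. Under saline 2 genes became 20 without a filter, 47 without the 3 aortas, 4 with covariates and 1 with quantile normalization, the 5 FPKM filter, the compared groups alone, the top transcript or voom. Without a filter AngII called 11 genes in WT, 1 over both genotypes and 1 in the interaction, where the main count was 0. Leaving out 1 library each gave 0 to 1 genes for AngII in WT, 0 to 4 in KO, 0 to 5 over both genotypes, 9 to 484 for KO against WT under AngII, 1 to 4 under saline and 281 to 1007 over both treatments. Gpnmb over both treatments was -0.72 with the top transcript (limma adjusted p = 0.0511). Resident minus other in KO AngII moved to -0.86 with the top transcript.

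Signs that turned were as follows. Adgre1 for AngII in WT was -0.016 with TMM-like scaling or voom and -0.015 with a pseudocount of 0.1. For KO under saline it was 0.052 with TMM-like scaling, 0.0043 with voom, 0.021 with quantile normalization and 0.14 with the top transcript, which also gave 0.16 for AngII in KO and 0.25 for KO under AngII. Lyve1 for KO under saline was 0.042 and 0.019 with the TMM-like and quantile scalings, and Mrc1 for KO under AngII 0.072 and 0.12. With lymphocyte covariates, AngII in WT gave -0.038 for Mrc1 and -0.017 for Adgre1. AngII in KO gave 0.093 for Mrc1, 0.036 for Cd68, 0.020 for C1qa and 0.074 for C1qb. KO under AngII gave 0.38 for Lyve1, 0.45 for Mrc1, 0.16 for Adgre1 and 0.028 for C1qa. KO under saline gave 0.18 for Lyve1, 0.34 for Cd68, 0.23 for Adgre1, 0.15 for Csf1r, 0.13 for C1qa, 0.18 for C1qb and 0.094 for C1qc.

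Without the 3 aortas, AngII in WT gave -0.15 for Mrc1 and -0.38 for Adgre1. AngII in KO gave 0.40 for Lyve1, 0.30 for Mrc1, -0.20 for Cd163, 0.92 for Cd68, 0.023 for Adgre1, 0.39 for Csf1r, 0.62 for C1qa, 0.75 for C1qb and 0.57 for C1qc. KO under AngII gave 0.22 for Mrc1 and 0.26 for Adgre1, and KO under saline -0.23 for Mrc1 and 0.15 for Cd163.

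Leaving out 1 library turned the sign of these differences at 1 end of the range. For AngII in WT the ranges were -0.18 to 0.15 for Lyve1, -0.15 to 0.26 for Mrc1 and -0.38 to 0.20 for Adgre1. For AngII in KO they were -0.58 to 0.096 for Lyve1, -0.27 to 0.23 for Mrc1, -0.074 to 0.57 for Cd163, -0.42 to 0.34 for Cd68, -0.30 to 0.042 for Adgre1, -0.62 to 0.0083 for Csf1r, -0.44 to 0.19 for C1qa, -0.38 to 0.26 for C1qb and -0.58 to 0.12 for C1qc. For KO under AngII they were -0.23 to 0.22 for Mrc1 and -0.32 to 0.26 for Adgre1. For KO under saline they were -0.42 to 0.17 for Lyve1, -0.16 to 0.30 for Mrc1, -0.61 to 0.030 for Cd163, -0.12 to 0.082 for Adgre1, -0.52 to 0.11 for Csf1r, -0.58 to 0.014 for C1qa and -0.60 to 0.040 for C1qb. Gpnmb for AngII over both genotypes ran from -0.14 to 0.033.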
